A study of Mus musculus with 8 samples.

Results

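Cytosolic ribosomal protein genes were compared between 2 groups of C26 tumors, a mouse colon carcinoma that is used as a model of cancer cachexia. Members were the genes whose whole symbol is Rpl or Rps, a number, optionally the letter a, x or l, and optionally a further number. Rplp0, Rplp1, Rplp2 and Rpsa were included as well, and the full name had to contain ribosomal protein but not pseudogene. This rule found 86 of the 27179 genes listed, of which 53 encode proteins of the large (60S) subunit and 33 proteins of the small (40S) subunit. All tumors were grown under the skin of male CD2F1 mice, which the study used at 13 to 18 weeks of age, and were collected once cachexia (body weight loss above 15%) had developed. The 4 cxC26 scr tumors came from the cachectic C26 line carrying Cas9 and a scrambled guide RNA. The 4 cxC26 IL6KOs1 tumors came from a single subclone, isolated after Cas9 and guides against the Il6 gene had been delivered by lentivirus to the same line. A difference between the groups can therefore belong to that 1 clone. In the study's experiments where this subclone caused cachexia in CD2F1 mice, its cells were implanted in a larger number and took longer to do so. Tumor age and genotype thus cannot be told apart.

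The ribosome makes all cellular protein, and each of its subunits is built from ribosomal RNA and a fixed set of proteins, nearly all present as a single copy. Their genes are scattered over the chromosomes, yet their mRNAs are made in similar amounts in a given tissue. Most of these mRNAs start with a run of pyrimidines, the terminal oligopyrimidine (TOP) tract, through which mTOR signalling controls their translation. Growing tumor cells make large amounts of them.

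The pyrimidine runs of several members whose mRNA level differed between the groups are shown first. Such a run, at the very start of the mRNA, is the sequence feature that these mRNAs are known to share. A run was a C followed by at least 7 further bases that were each C or T, read on the strand of the gene. It was searched between 25 bases before and 45 bases after an annotated RefSeq start (GRCm38.p6), not always the outermost start of the gene. Each sequence below has 26 bases, written 5′ to 3′ with the run in capitals. The first 4 members were higher in cxC26 IL6KOs1 tumors and the last 3 were lower.
Rps12 (chr10:23787183-23787208, minus strand): ccgccggCCTTTTCCCCTgccgccgc
Rps26 (chr10:128626486-128626511, minus strand): ccgccggatCCTCTTTCgagtcttgg
Rpl14 (chr9:120571503-120571528, plus strand): ggcgggCCCTCTCTCTTCTCgctgag
Rpl35a (chr16:33056471-33056496, plus strand): ggcttgCCTTCCTCTTTCCgccatct
Rpl13a (chr7:45128724-45128749, minus strand): acaagaCCTCCTCCTTTCCCaggcgg
Rpl18 (chr7:45718064-45718089, plus strand): gcaggccgCTCTTTCCCCgcccactc
Rpl31 (chr1:39367827-39367852, plus strand): gccacaCCTCTTCCTCCTCgcctccc
Start sequences were given for 64 members, and 45 of them (70.3%) held such a run, against 22.9% of 26961 other genes. The run was found in 5 of the 9 higher members with a start sequence, in 3 of the 4 lower members and in 36 of the 49 members that were not called. It was therefore present on both sides of the comparison. Relative to the start used, the printed runs began at 1 (Rpl18), 2 (Rpl13a), 4 (Rps26), 8 (Rps12) and 24 (Rpl35a). For Rps12 and Rpl18 the start used lies inside the gene, whose outermost 5′ ends are at 23787383 and 45715467. Those of Rpl14 and Rpl31 began at -8 and -18, so a run in this window need not be the tract at the mRNA start. A match to these letters is a description, and no run says only that the letters are not in this window.

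RNA was sequenced from whole tumors after selection of polyadenylated RNA, and the deposited values were log2 CPM, the log2 of read counts scaled to the size of the library. Between 14158989 and 17048062 reads per tumor fell on genes, and the groups overlapped in depth. As a check of the labels, reads on Il6, the gene aimed at, numbered 356, 326, 376 and 438 in cxC26 scr, compared with 64, 56, 86 and 59 in cxC26 IL6KOs1 tumors, a log2 change of -2.45 (SE 0.165, adjusted p = 1.76e-06 from limma). Epithelial markers of carcinoma were low in both groups. The summed level of Krt8, Krt18, Krt19, Epcam and Cdh1 was 2.82 to 4.74 CPM in cxC26 scr and 14.4 to 25.4 CPM in cxC26 IL6KOs1 tumors.

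Of the 86 members, 83 reached 1 CPM in 4 or more tumors and were tested. The other 3 are relatives of broadly used members. Rpl10l had 0 reads in every tumor, Rpl3l had 46 reads in all and Rps4l had 108. A difference was called when the adjusted p from limma over all 13262 tested genes was under 0.05. By this threshold 13 members (15.7%) were higher and 5 (6.02%) were lower in cxC26 IL6KOs1 tumors, and 65 were not called. Over all tested genes 19.1% were higher and 20.7% were lower. The share of members called higher was thus near the share of all genes, and the share called lower was below it. The log2 values of the groups did not overlap for 10 members with a higher mean and 4 with a lower mean, compared with 17.8% and 19.3% of all tested genes. Among the 10 was Rps23, which was not called (0.28, adjusted p = 0.0597 from limma).

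The changes of the members were small. The log2 fold change had a median of 0.12 (-0.0029 over all tested genes), with quartiles of -0.014 and 0.24, and 57 of the 83 members lay within 0.25 of 0. Only 5 members (6.02%) changed by more than 0.5 in either direction, against 29.5% of all tested genes. The standard error of a single member was 0.084 to 0.24, with a median of 0.11. The mean was higher in cxC26 IL6KOs1 tumors for 60 members and lower for 23. Among 51 tested 60S members, 6 were higher and 3 lower, and among 32 tested 40S members, 7 were higher and 2 lower. The median change was 0.15 for 60S and 0.11 for 40S members, and the difference between the subunits was not tested.

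The size of the median moved with transcript length, which differed between members and other genes. The members had a median length of 869 nt and the other tested genes of 3031 nt. Among the other genes the median change was 0.16 at lengths of 500 to 1000 nt (613 genes) and -0.10 above 4000 nt (4021 genes). Below 500 nt it was -0.038 (55 genes), where 11 members had a median of 0.045. The 42 members of 500 to 1000 nt had a median of 0.14, and the 23 members of 1000 to 2000 nt one of 0.15 beside 0.087 for other genes. With a correction for this trend, the median of the members turned to -0.058, with 4 members higher and 19 lower, against 18.3% and 24.1% of all genes with a length. The direction of the median therefore depended on this choice, and the correction rests on the longest principal transcript of each gene, which can exceed its main mRNA. The 4 higher members were Rps12, Rps15, Rpl41 and Rps26, and all 5 members called lower without the correction were among the 19.

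The count of higher and lower members also depended on single tumors. It was 6 higher and 8 lower without cxC26 IL6KOs1 tumor 2, and 5 higher and 2 lower without cxC26 scr tumor 4. It was 8 and 6 without cxC26 scr tumor 1, 9 and 1 without scr tumor 2, and 7 and 1 without scr tumor 3. Without cxC26 IL6KOs1 tumors 1, 3 or 4 the counts were 11 and 2, 6 and 3, and 17 and 1. Over all tested genes the same fits called 15.3% to 19.2% higher and 16.5% to 20.2% lower, with 16.7% and 18.5% without cxC26 IL6KOs1 tumor 2. Without cxC26 IL6KOs1 tumor 1 the shares were 18.3% and 19.9%, and without tumor 4 they were 17.8% and 19.7%. In all 8 of these fits 6 members were called, namely Rps12, Rpl41, Rps26, Rps15, Rpl35a and Rpl31.

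Among the 40S members, Rps12, a protein of the beak of the small subunit, had the largest change. It measured 8.86, 8.97, 8.85 and 8.60 log2 CPM in cxC26 scr and 9.62, 10.02, 9.76 and 9.61 in cxC26 IL6KOs1 tumors. Every cxC26 IL6KOs1 tumor lay above every cxC26 scr tumor. The rise was 0.93 on the log2 scale (SE 0.117, adjusted p = 0.000131 from limma), so that its level was 190.5% of that in cxC26 scr tumors. Rps12 lies on chromosome 10 of GRCm38 from 23785183 to 23787383. The annotation has 23 entries named as its pseudogenes, so that reads shared with near-identical copies make its level uncertain.

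Rps26, which lines the mRNA exit channel, measured 9.13, 9.26, 9.16 and 8.997 log2 CPM in cxC26 scr and 9.60, 10.08, 9.79 and 9.53 in cxC26 IL6KOs1 tumors. It rose by 0.61 (SE 0.123, adjusted p = 0.00235 from limma) and the groups did not overlap. Rps15, a protein of the head of the small subunit, measured 9.33, 9.45, 9.29 and 9.19 against 9.75, 10.28, 9.94 and 9.66 log2 CPM. Its rise was 0.59 (SE 0.132, adjusted p = 0.00427 from limma), again without overlap. Rps26 lies on chromosome 10 from 128624529 to 128626506 and Rps15 on the same chromosome from 80292431 to 80294114.

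Rpsa, which is also known as the laminin receptor, had the highest mean of all members (11.005 log2 CPM, not scaled by length). It measured 10.76, 10.82, 10.84 and 10.62 log2 CPM in cxC26 scr and 10.90, 11.60, 11.32 and 11.17 in cxC26 IL6KOs1 tumors, a rise of 0.49 (SE 0.148, adjusted p = 0.0216 from limma). The groups did not overlap, but the first cxC26 IL6KOs1 tumor lay only just above the highest cxC26 scr tumor. The other higher 40S members were Rps2 (0.45, SE 0.158, adjusted p = 0.0391), Rps20 (0.37, SE 0.137, adjusted p = 0.04999) and Rps29 (0.29, SE 0.0993, adjusted p = 0.0388). Rps20 stood at the threshold and was called in 1 of the 8 fits that left out a tumor.

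Among the 60S members, Rpl41, the smallest protein of the ribosome, rose most. It measured 10.02, 10.14, 10.23 and 10.02 log2 CPM in cxC26 scr and 10.69, 10.97, 10.67 and 10.61 in cxC26 IL6KOs1 tumors. The rise was 0.63 (SE 0.113, adjusted p = 0.00116 from limma), without overlap, and the gene lies on chromosome 10 from 128548110 to 128549168. Rpl14 measured 8.89, 8.97, 8.35 and 8.42 against 8.85, 9.79, 9.40 and 9.02 log2 CPM. Its rise of 0.61 had a larger error (SE 0.202, adjusted p = 0.0325 from limma). In the cxC26 scr group tumors 1 and 2 stood above tumors 3 and 4, and the groups overlapped. Rpl35a, which is mutated in some patients with Diamond-Blackfan anaemia, an inherited failure of red cell formation, had the smallest error. It measured 7.17, 7.39, 7.40 and 7.26 against 7.59, 7.56, 7.77 and 7.63 log2 CPM, a rise of 0.33 (SE 0.0841, adjusted p = 0.00895 from limma). Also higher were Rpl22 (0.30, adjusted p = 0.0388) and Rpl3 (0.29, adjusted p = 0.0452), the last a protein near the peptidyl transferase centre.

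The largest decrease was that of Rpl31, a 60S protein near the exit of the peptide tunnel. It measured 9.77, 9.92, 10.06 and 9.98 log2 CPM in cxC26 scr and 9.48, 9.60, 9.56 and 9.34 in cxC26 IL6KOs1 tumors. The difference was -0.44 (SE 0.100, adjusted p = 0.00516 from limma), a level of 73.9% of that in cxC26 scr tumors, and the groups did not overlap. Rpl31 lies on chromosome 1 from 39367851 to 39371911, has 23 named pseudogenes and overlaps the protein-coding gene Tbc1d8.

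The other 4 lower members all lie on chromosome 7, among them Rps19, Rpl13a and Rpl18. Rps19, the gene most often mutated in Diamond-Blackfan anaemia, measured 9.34, 9.57, 9.48 and 9.44 against 9.01, 9.30, 9.23 and 8.92 log2 CPM (-0.35, SE 0.105, adjusted p = 0.0219 from limma). Rpl13a, known for a role outside the ribosome in silencing translation of inflammatory mRNAs, measured 10.35, 10.44, 10.50 and 10.48 against 10.13, 10.24, 10.16 and 9.87 log2 CPM (-0.34, SE 0.107, adjusted p = 0.0250 from limma). Both genes were without overlap between the groups. Rpl18 differed by -0.29 (adjusted p = 0.0484) without overlap. Rpl18 overlaps the protein-coding gene Sphk2, and Rpl13a holds several small nucleolar RNA genes. Among the higher members, Rpl35a overlaps the protein-coding gene Iqcg, and Rps12 and several others overlap small nucleolar RNA genes. Rps19 has 13 named pseudogenes, and Rpsa and Rps2 have 12 each. The strand setting of the counting is not known, and how far reads of such overlapping genes or copies were counted on the members was not tested.

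**Figure D1:**
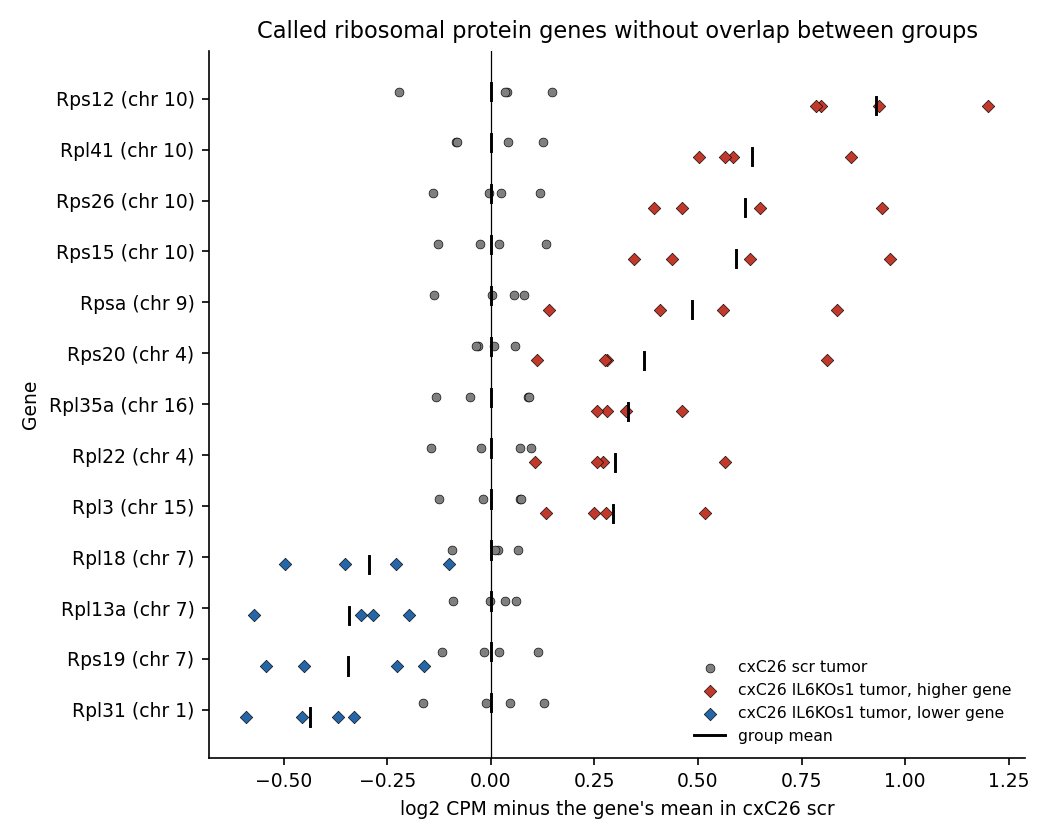
Each row is a called member whose groups did not overlap, with its chromosome. Points are the 4 cxC26 scr tumors (circles) and the 4 cxC26 IL6KOs1 tumors (diamonds), as log2 CPM minus the mean of the cxC26 scr tumors for that gene, and vertical strokes are group means. The 4 genes of chromosome 10 lie farthest to the right, and Rpl31 has the lowest mean.

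Called members were unevenly placed along the genome. Chromosome 10 carries 6 tested members, of which 4 were higher and 0 lower (0 lower also at an unadjusted p under 0.05 in limma and with voom weights), with a median change of 0.60. The other 621 tested genes of chromosome 10 had a median of 0.32, and 46.9% of the tested genes of this chromosome were higher. The 2 uncalled members there were relatives of other members, Rpl32l (0.31, adjusted p = 0.126) and Rpl6l (0.09, adjusted p = 0.435). Chromosome 7 carries 14 tested members, of which 4 were lower and 0 higher (0 also at an unadjusted p under 0.05 in both fits). Their median change was -0.20 and 11 of the 14 lay below 0. The other 978 genes of chromosome 7 had a median of -0.27, and 42.2% of its tested genes were lower. On chromosome 1 the 3 members were all below 0, in a setting of -0.34 for 755 other genes. Chromosomes 2, 5, 11, 17 and 18 differed from this pattern. All members of chromosomes 2, 17 and 18 (4, 7 and 2 genes) lay above 0, in settings of -0.078, -0.037 and -0.073. The 5 members of chromosome 5 ranged from -0.25 to 0.24 with a median of 0.12, and 3 lay above 0, in a setting of -0.24 for 825 other genes, of which 40.2% were lower. The 7 members of chromosome 11 ranged from -0.20 to 0.080 with a median of -0.00093, in a setting of -0.15 for 1065 other genes. On chromosome 9, where 17.9% of genes were higher, 2 of the 7 members (Rpl14 and Rpsa) were higher although the other genes had a median of 0.0073. No tested member lies on chromosome 19. Outside chromosomes 7 and 10, 9 of 63 members were higher and 1 was lower, with a median of 0.16. These counts stand beside 19.1% higher and 20.7% lower over all tested genes, those of chromosomes 7 and 10 included.

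**Figure D2:**
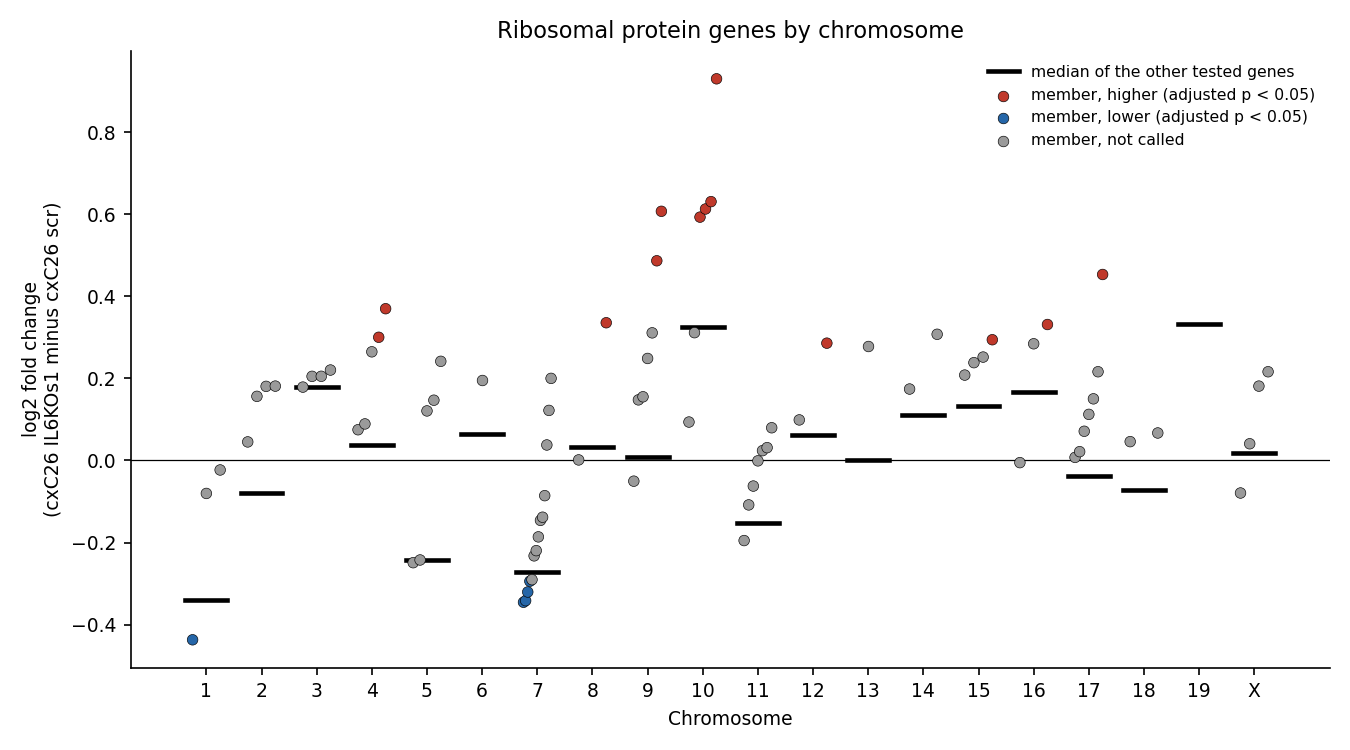
Points are the 83 tested members by chromosome, with the log2 fold change (cxC26 IL6KOs1 minus cxC26 scr) on the vertical axis and calls in colour, and black bars are the median of the other tested genes of each chromosome. The members of chromosome 10 lie at 0.09 to 0.93 and those of chromosome 7 at -0.35 to 0.20, on the same side of 0 as the bars of these chromosomes for most members.

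The same was seen at a shorter distance. For each member the median change of the other tested genes within 5 Mb was taken, from at least 12 and typically 69 genes. Across the 83 members the change of a member and that of its surroundings had a Pearson r of 0.75 and a Spearman rho of 0.70. Without Rps12 r was 0.71, and over the 63 members off chromosomes 7 and 10 it was 0.60. These are descriptions across genes measured in the same 8 libraries, and close members share neighbours. Among the 18 called members 16 had the sign of their surroundings, and among all 83 it was 55. Rps2 (0.45) and Rpl22 (0.30) were the exceptions among the called members, with surroundings at -0.13 and -0.030.

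**Figure D3:**
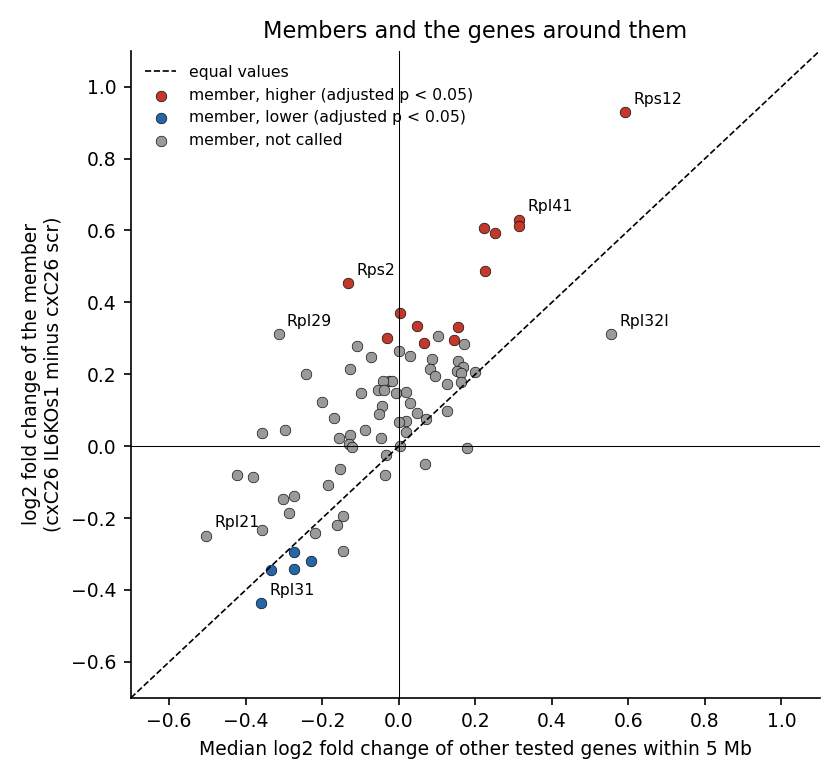
Each point is a tested member, with the median log2 fold change of the other tested genes within 5 Mb on the horizontal axis and its own log2 fold change on the vertical axis. The dashed line marks equal values. Most points lie above the line, Rps12 stands at 0.59 and 0.93, and the 5 lower members lie close to the line.

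After the medians of each chromosome were removed from every tumor, 9 members were higher and 0 lower (limma, 1 lower at an unadjusted p under 0.05), against 16.5% and 16.2% of all genes. With the medians of the surrounding 5 Mb removed, 9 were higher and 0 lower (0 at an unadjusted p under 0.05), against 16.1% and 15.6%. None of the 5 decreases was called in either form. Rpl31 was then at -0.11 and -0.077, and Rps19 at -0.079 and -0.012. Of the 13 increases, 5 were called after removal of chromosome medians (Rps12, Rpl41, Rpl14, Rpsa and Rps2) and 4 after removal of the surroundings (Rps12, Rpl41, Rps2 and Rpl22). Rps12 kept a rise of 0.61 (adjusted p = 0.00177 from limma) in the first form and of 0.34 (adjusted p = 0.0447 from limma) in the second. The other members called higher were Rpl29, Rplp0, Rpl6 and Rpl5 in the first, and Rpl29, Rps23, Rplp1, Rpl10a and Rps21 in the second.

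Ribosomal protein mRNAs took up 5.25%, 5.94%, 5.75% and 5.26% of all reads in the cxC26 scr tumors. In the cxC26 IL6KOs1 tumors the share was 5.68%, 6.92%, 6.17% and 5.41%. The means were 5.55% ± 0.346 and 6.05% ± 0.665 (SD, n = 4 each), and the groups overlapped. The 95% exact binomial interval of a single tumor was narrow, from 6.91% to 6.94% for cxC26 IL6KOs1 tumor 2 for example, and covers counting error only. The mean of the cxC26 IL6KOs1 tumors was 5.75% without tumor 2.

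The members moved together from tumor to tumor. Tumor 2 was the highest of the cxC26 IL6KOs1 group for 78 of the 83 members and tumor 4 was the lowest for 69. In the cxC26 scr group tumor 2 was the highest for 46 members and tumor 4 the lowest for 44. The median member stood 0.051, 0.36, 0.13 and -0.035 above its cxC26 scr mean in cxC26 IL6KOs1 tumors 1 to 4. Without tumor 2 the median change of the members was 0.040. Once each tumor was centred on the typical member, the median SD between tumors of the same group fell from 0.19 to 0.071 in cxC26 IL6KOs1 and from 0.11 to 0.069 in cxC26 scr.

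The order of chromosomes was the same in each cxC26 IL6KOs1 tumor. Relative to the cxC26 scr mean of each gene, the median member of chromosome 10 exceeded that of chromosome 7 by 0.76, 0.83, 0.72 and 0.77 on the log2 scale in tumors 1 to 4. In the cxC26 scr tumors, which lie near 0 by construction, this difference was 0.069, 0.011, -0.011 and -0.031. Both chromosomes were chosen for their shifts, so these values describe the fold changes tumor by tumor and are no test. The difference varied less between cxC26 IL6KOs1 tumors than the overall level of the members did. After centring on the typical member, 6 members were higher (Rps12, Rpl41, Rps26, Rpl14, Rps15 and Rpsa) and 12 were lower, against 10.7% and 21.5% of all genes. Of the 12 lower members 9 lie on chromosome 7, among them Rps3 (-0.41, adjusted p = 0.00503 from limma), Rpl27a (-0.34, adjusted p = 0.0134 from limma) and Rpl28 (-0.35, adjusted p = 0.0395 from limma). Without the centring these 3 were not called.

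**Figure D4:**
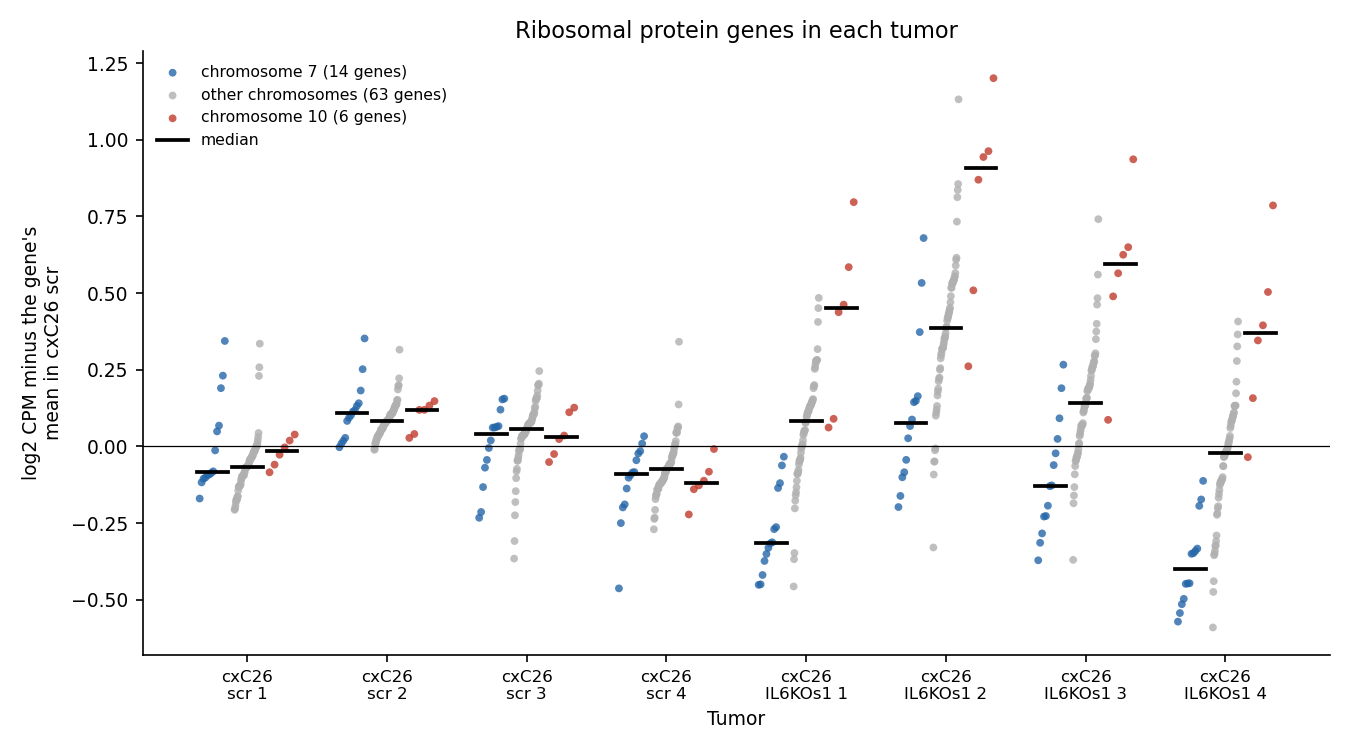
Each point is a tested member in 1 tumor, as log2 CPM minus the mean of the cxC26 scr tumors for that gene, with members of chromosome 7, of chromosome 10 and of the other chromosomes side by side and their medians as bars. In every cxC26 IL6KOs1 tumor the bar of chromosome 10 lies 0.72 to 0.83 above that of chromosome 7, while the level of all members is highest in tumor 2.

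Markers of other cells differed between the groups as well. All 4 leukocyte markers and all 4 macrophage markers were higher in cxC26 IL6KOs1 tumors, as were 3 of 3 tested T cell markers, 2 of 3 tested B and plasma cell markers and 1 of 3 tested neutrophil markers. The summed leukocyte level was 116 to 143 CPM in cxC26 scr and 203 to 455 CPM in cxC26 IL6KOs1 tumors, and the summed macrophage level was 237 to 299 and 455 to 919 CPM. In both lists cxC26 IL6KOs1 tumor 2, the tumor with the most ribosomal protein reads, had the lowest sum of its group. Fibroblast markers summed to 6412 to 7757 and 4054 to 6687 CPM (2 of 4 lower), and proliferation markers to 1220 to 1542 and 1034 to 1379 CPM (2 of 4 lower). None of 3 endothelial markers was called (0 also at an unadjusted p under 0.05 in limma and with voom weights), and 1 of 7 muscle markers was higher. The summed muscle level varied widely, from 8.80 to 162 CPM in cxC26 scr and from 24.0 to 344 CPM in cxC26 IL6KOs1 tumors. No marker of these lists had 0 reads in all 8 tumors. The part of these cells in the ribosomal protein levels was not tested, and in whole tumors fewer cells of a type and less RNA per cell cannot be told apart.

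Rplp0, Rplp1 and Rplp2 form the stalk of the large subunit, which recruits elongation factors. Rplp0, often used as a reference gene, measured 9.995, 10.01, 10.11 and 9.90 log2 CPM in cxC26 scr and 10.14, 10.39, 10.35 and 10.10 in cxC26 IL6KOs1 tumors, a difference of 0.24 (SE 0.105, adjusted p = 0.0878 from limma). Rplp1 differed by 0.25 (SE 0.116, adjusted p = 0.110) and Rplp2 by 0.20 (SE 0.209, adjusted p = 0.472). The values of Rplp2 were the most scattered, from 8.12 to 8.94 in cxC26 scr and from 8.47 to 9.27 in cxC26 IL6KOs1 tumors. Rps6, the 40S protein that is phosphorylated by S6 kinase, differed by 0.26 (SE 0.123, adjusted p = 0.108) and its groups overlapped.

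Several members are relatives of another member, and a pair is best read as the log2 level of the relative minus that of its parent gene. Rps27l, a target of p53, stood at -1.01 ± 0.136 relative to Rps27 in cxC26 scr and at -1.26 ± 0.119 in cxC26 IL6KOs1 tumors (SD, n = 4 each). Rpl22l1 stood at -0.32 ± 0.18 and -0.42 ± 0.019 relative to Rpl22, and Rpl7l1 at -2.99 ± 0.0956 and -2.86 ± 0.343 relative to Rpl7. These differences of pairs were not tested, and none of Rps27l, Rpl22l1 and Rpl7l1 was called alone. Rpl6l and Rpl32l, found by the symbol rule and added as relatives after the gene list was seen, stood at -3.78 and -7.00 relative to Rpl6 and Rpl32 in cxC26 scr, and at -3.83 and -6.89 in cxC26 IL6KOs1 tumors. The lone pair in which the relative exceeded its parent was Rpl39l, known as the testis form, with 16425 reads over all tumors against 254 for Rpl39. This order rests on the low count of Rpl39, which is uncertain because reads that fit near-identical copies may not have been counted on it. Neither was called (-0.0053 for Rpl39l and -0.079 for Rpl39).

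Rpl39 had the lowest level of the tested members (1.05 log2 CPM), followed by Rpl32l (2.97) and Rpl21 (4.33), which has 15 named pseudogenes. The highest levels beside Rpsa were those of Rps3 (10.9) and Rps3a1 (10.7), again per gene and not per length. Per kilobase of transcript the highest were Rplp1 (11.4), Rpl41 (11.2) and Rps3a1 (10.8). This order is uncertain, since the lengths are those of the longest principal transcript (1938 nt for Rpsa and 1908 nt for Rps3) and can exceed the main mRNA. Whether reads that fit several copies were kept is not given in the sources used here, and a low level of a gene with near-identical copies is therefore uncertain. The 74 entries named as ribosomal protein pseudogenes took 0.094% to 0.12% of reads, and of the 32 that were tested 2 were higher and 0 lower.

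Genes that work with the ribosomal proteins were counted in lists. Of 5 cytosolic ribosome genes outside the symbol rule 1 was higher, Fau, which encodes a ubiquitin-like protein fused to a 40S protein (0.35, SE 0.127, adjusted p = 0.0460 from limma). Of 28 translation factors and other TOP mRNAs 7 were higher and 0 lower (0 lower at an unadjusted p under 0.05 in limma and with voom weights), with a median change of 0.22. Removal of chromosome medians or of medians within 5 Mb left 2 higher and 1 lower in each form, and the length correction 5 higher and 2 lower. The largest rises among them were Vim, the intermediate filament vimentin (0.65, SE 0.187, adjusted p = 0.0163 from limma), and Eif4a2, an RNA helicase of initiation (0.49, SE 0.123, adjusted p = 0.00787 from limma). Of 14 RNAs that host small nucleolar RNAs 5 were higher, led by Snhg12 (0.55, adjusted p = 0.0140 from limma) and Snhg8 (0.52, adjusted p = 0.00508 from limma), and 1 was lower. Only 5 of the 14 had a length and entered the length correction, and 2 of these 5 were then higher. These shares stand beside 19.1% higher and 20.7% lower over all genes.

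Ribosome biogenesis, RNA polymerase I and the control of ribosome supply had more lower than higher genes, with shares of lower genes near the 20.7% of all tested genes. Of 63 ribosome biogenesis genes 16 were lower and 5 higher, with a median of -0.088. The largest decreases were those of Wdr75 (-0.69, SE 0.130, adjusted p = 0.00155 from limma), a factor of the small subunit processome, and Rrp1b (-0.67, SE 0.0883, adjusted p = 0.000173 from limma), a nucleolar protein. Of 15 tested RNA polymerase I genes 4 were lower and 1 higher, with Polr1d at -0.52 (adjusted p = 0.0164 from limma) and Taf1a at -0.50 (adjusted p = 0.00936 from limma). After removal of chromosome medians or of medians within 5 Mb, 5 and 6 biogenesis genes and 1 and 1 polymerase genes were lower. Of 24 tested genes of mTOR and Myc control 6 were lower and 0 higher (2 higher at an unadjusted p under 0.05 in limma, 1 with voom weights). The lower genes included 4 known as inhibitors of this control, Mxd3 (-0.49, adjusted p = 0.0219 from limma), Akt1s1 (-0.39), Tsc1 (-0.37) and Tsc2 (-0.31). Mxd3 is a partner of Max that competes with Myc. The remaining lower genes were Mtor, the gene of mTOR itself (-0.33), and Rps6kb1, the S6 kinase that phosphorylates Rps6 (-0.42, SE 0.107, adjusted p = 0.00884 from limma). After removal of chromosome medians 5 genes of this list were lower and 0 higher (2 higher at an unadjusted p under 0.05 in limma). With medians within 5 Mb removed, 5 were lower and 1 higher. The surroundings of Wdr75, Polr1d and Taf1a were at -0.41, -0.51 and -0.40, whereas those of Rrp1b and Mxd3 were at -0.013 and -0.053.

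Of 76 tested mitochondrial ribosomal proteins, which serve the separate ribosome of mitochondria, 12 were higher and 9 lower, with a median of 0.054. With the length correction it was 7 higher and 24 lower. Mrps17 differed by -0.79 (adjusted p = 0.000728 from limma) and Mrpl16 by 0.65 (adjusted p = 0.00925 from limma), in surroundings at -0.31 and 0.38. Of 13 genes for rescue of stalled ribosomes 1 was higher, Hbs1l on chromosome 10 (0.43, adjusted p = 0.00495 from limma), and 2 were lower, the larger decrease being that of Ascc2 (-0.42, adjusted p = 0.0112 from limma). Counts and medians describe these lists, and no list was tested against the others.

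**Figure D5:**
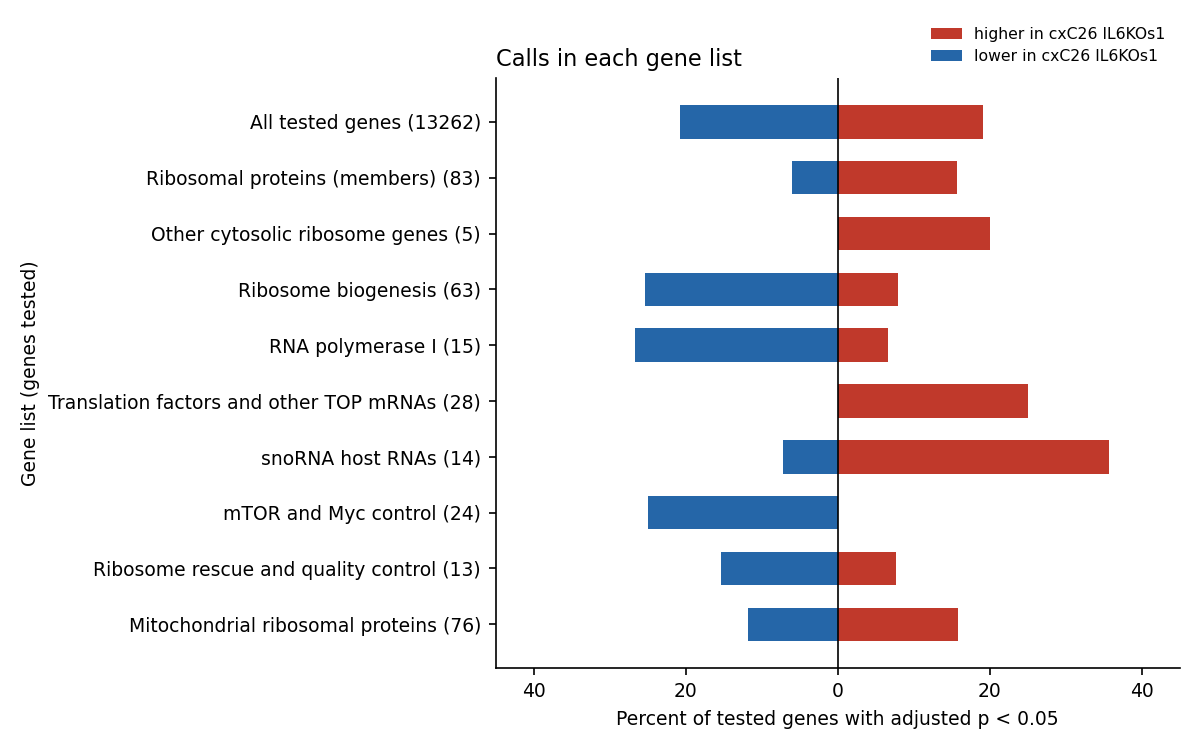
Bars show the percent of the tested genes of each list that were higher (right) or lower (left) in cxC26 IL6KOs1 tumors at an adjusted p under 0.05, with the number of tested genes in brackets. The members show 15.7% higher and 6.02% lower, beside 19.1% and 20.7% of all tested genes. The lists for ribosome biogenesis, RNA polymerase I, mTOR and Myc control, and ribosome rescue extend further to the left than to the right.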

How the data were processed

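Paired 150 bp reads were trimmed by the authors (Trimmomatic), mapped with Hisat2 to mm10 and assigned to genes with featureCounts, and the deposited values are log2 CPM from limma-voom for 8 tumors. The submitters' processing notes name bcl2fastq 2.17. Other versions, the annotation and the strand setting are not given in the sources used here. Whole reads were recovered from the deposited log2 values (100% whole, tolerance 0.05), with 14158989 to 17048062 reads per tumor, which set the precision of low genes. The labels do not say which tumors shared a mouse or culture, so p-values measure the spread between these samples.

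Groups were taken from sample titles. Genes that reached 1 CPM in 4 or more tumors were tested in R 4.3.3 with limma 3.58.1 (lmFit, eBayes with trend, no covariates, two-sided) and Benjamini-Hochberg adjustment over all 13262 tested genes. Fold changes are cxC26 IL6KOs1 minus cxC26 scr on the scale of log2 CPM with an offset of 0.5 reads, and errors are moderated standard errors. The fit was tested on simulated data. Positions came from RefSeq (GRCm38.p6) for 13001 tested genes, and lengths from the longest principal GENCODE M21 transcript for 12415 (93.6% of all tested genes). Named genes were all called members, relatives of other members with their parents, the stalk genes, Rpsa and Rps6, the 3 highest and 3 lowest members, and up to 2 called genes of largest change from each list. A few of these are left out of the text. A few genes outside this rule are named where a count or a removal of medians turned on them. The members and lists were chosen with earlier results of these data known. Tests for counts were not run, and the recovered reads were used with voom weights as an alternative.

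Alternatives were no filter, a minimum mean of 3 log2 CPM, quantile or median scaling between tumors, a block for the replicate number, leaving out single tumors, a variance without trend, voom weights, a pseudocount of 1 CPM, a 2-fold change, removal of chromosome medians and a correction for transcript length. Removal of medians within 5 Mb and centring on the members were added after seeing the data.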

Additional observations from a re-analysis of the deposited data

Results flagged for a closer look

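In 3 of 80 groups of 4 tumors examined (4 are expected by chance at the 95% level of Dixon's test), 1 tumor stood apart from the other 3. Rpl7l1, a relative of Rpl7, measured 7.71 log2 CPM in cxC26 IL6KOs1 tumor 1 and 7.21 to 7.22 in the other 3 tumors. In the cxC26 scr group Rpl7l1 measured 7.30 in tumor 2 and 7.19 to 7.21 in the others. Rps27l measured 7.29 in cxC26 scr tumor 1 and 7.51 to 7.54 in the others.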

How the results depend on the processing

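Counts are given as members higher and members lower, 13 and 5 in the report. Without the filter on low expression they were 5 and 1. With a variance without trend 6 were higher, and with quantile normalization 8 were lower. A 2-fold change left 0 and 0 (limma), at any p, since the largest change was 0.93 on the log2 scale. With the correction for transcript length they were 4 and 19, and the median log2 change turned from 0.12 to -0.058. Removal of chromosome medians or of medians within 5 Mb left 0 lower. Centring on the members gave 6 and 12. Leaving out 1 tumor gave 5 to 17 higher and 1 to 8 lower. The cause was not tested, except that the filters and left-out tumors change how many genes or samples enter.

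Centring on the members set their median log2 change near 0 by construction (0.0015). Apart from this and the length correction, the median stayed between 0.040 and 0.18. The difference in the share of reads stayed between 0.20 and 0.71 percentage points (0.50 in the report). Tumors with the same replicate number did not deviate together (correlations of -0.059, 0.057, 0.017 and -0.059), and only tumor 2 of the cxC26 scr group correlated best with its own number, so they share only a number. With the replicate number as a block 16 members were higher and 4 lower.

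A change of 0.25 on the log2 scale is about 2 standard errors of a typical member, and every called member changed by more. The smallest called change was that of Rps29 (0.29, adjusted p = 0.0388 from limma), while Rpl29 at 0.31 (adjusted p = 0.0541 from limma) was not called. Changes below these sizes were therefore mostly not detectable with 4 tumors a group.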
